A study of Xenopus tropicalis with 39 samples.

Results

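The 100 gene models described here ranked highest for animal bias of their RNA in the 8-cell Xenopus tropicalis embryo, by the rule given below. They were taken from 26550 gene models. Of these, 6209 had a mean of at least 20 TPM in the 3 animal blastomere libraries and were eligible, where TPM is a measure of transcript abundance per length, with library totals made equal. Eligible models were ranked by the smallest of 3 ratios, (animal TPM + 1) / (vegetal TPM + 1), 1 for each replicate number, and the top 100 were kept. The animal and vegetal TPM of the 8-cell libraries therefore chose the members, and those values are given as a description without a test.

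An amphibian egg has a pigmented animal pole and a yolk-rich vegetal pole, and many of its RNAs are laid down by the mother before fertilization. Some maternal RNAs are carried to the vegetal cortex during oogenesis, and several of these encode factors that set up endoderm and germ cells. Animal cells give rise to ectoderm and vegetal cells to endoderm. The first divisions run on maternal RNA, and transcription of the embryo's own genome begins in earnest at the midblastula stage. By the early gastrula, a transcript level therefore mixes what is left of the maternal RNA with what has been newly made.

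The files pair the identifiers with no gene symbols. None of them (0) was found among the 28858 genes of the reference table for assembly UCB_Xtro_10.0, so the members are given by identifier, without names, roles or positions. For the same reason no list of pathway genes or tissue markers could be read, and members that share reads with a near-identical copy cannot be singled out.

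RNA was sequenced from animal blastomeres, vegetal blastomeres and whole embryos at the 8-cell stage (n = 3 libraries each), and from explants harvested at stage 10.5, 7 hours after fertilization. Animal caps are explants of prospective ectoderm. Their embryos were uninjected, received vegt RNA alone (50, 100, 200 or 500 ng) or received 100 ng of vegt RNA together with otx1 RNA (25, 50 or 100 ng), with n = 2 each. The amounts are in ng as labelled, which is large for a single embryo. That unit could not be checked, so the amounts are read only relative to each other. Vegetal masses are explants of prospective endoderm. Their embryos were uninjected or received morpholinos (MO), antisense blockers of translation or splicing. These targeted Vegt (Vegt MO), Otx1 (Otx1 MO) or the pair together (Double MO), with n = 2 each. Vegt is a T-box and Otx1 a homeodomain transcription factor. Injections were made at the 1-cell stage and explants were cut at stage 9. The labels give no strain or genotype, and the titles of the mass libraries give the stage as a whole number, not as 10.5. The comparisons of vegt RNA and of MO below are with uninjected controls. In these, effects of injection itself cannot be told apart from those of the injected RNA or MO. The comparisons of otx1 RNA are with caps that received 100 ng of vegt RNA alone. The 8-cell blastomeres came from the same clutch per the labels. The submitters call the 8-cell samples biological triplicates and the explants biological duplicates.

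Estimated read counts summed to between 9005402 and 17210721 per 8-cell library, 8289954 and 18201303 per cap library and 10906279 and 16379814 per mass library. Vegetal blastomere replicate 3 had the fewest counts of the 8-cell libraries and the highest share of features at 0, 64.3%. That share was 43.7% and 58.1% in vegetal replicates 1 and 2, and 42.6% in the 8-cell library with the lowest. Animal replicates 1, 2 and 3 had 43.5%, 50.9% and 48.5%, so the vegetal library had clearly more in pairs 2 and 3. In vegetal replicate 3, 10 members were listed at 0 TPM, against 4 in vegetal replicate 2 and 0 in replicate 1. The shares of eligible models at 0 were 2.92%, 0.419% and 0.193%, and a vegetal 0 raises the ratio that chose the members. The ratio of pair 3 over all eligible models had a median of 1.29, against 0.946 and 0.997 in pairs 1 and 2, so ratios above 1 were more common in that pair over the eligible models as a whole. Choices of members with and without this pair are compared below.

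The animal bias of the members was modest in size. Their smallest ratio ranged from 1.41 to 3.46 with a median of 1.60, and 17 of the 100 reached 2. Median ratios were 1.66, 1.95 and 2.84 in pairs 1, 2 and 3. Pair 1 gave the smallest ratio for 67 members, pair 2 for 24 and pair 3 for 9. The members had a median of 76.5 TPM in animal blastomeres, against 67.8 TPM over all eligible models, and of 37.2 TPM in vegetal ones. The minimum of 20 TPM is part of the rule. Their means in animal blastomeres ran from 21.0 to 1347 TPM.

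**Figure D1:**
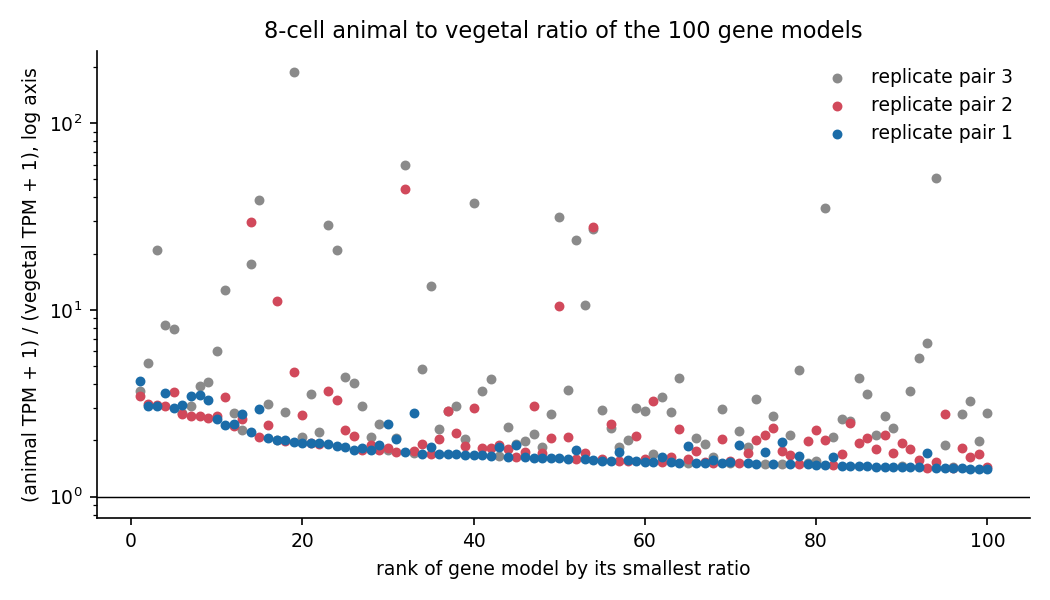
Animal to vegetal ratio of TPM + 1 (log axis) for each of the 100 members in each replicate pair, by rank. Pair 1 runs from 4.19 down to 1.41, and the highest values, up to 188, are those of pair 3.

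The member with the highest smallest ratio was Xetrov90019195m.g. It was at 186, 291 and 239 TPM in animal replicates 1, 2 and 3, at 43.6, 83.4 and 63.9 TPM in vegetal replicates and at 109, 178 and 77.7 TPM in whole embryos. Every animal library lay above every vegetal library, and its ratios were 4.19, 3.46 and 3.70.

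Xetrov90006851m.g ranked second, at 140, 312 and 144 TPM in animal and 45.2, 99.1 and 26.8 TPM in vegetal blastomeres. Replicate 2 was the high one of both tissues. The ratios of this model were 3.06, 3.13 and 5.21.

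The most abundant members were Xetrov90009765m.g and Xetrov90017599m.g. Xetrov90009765m.g was at 1347 ± 142 TPM in animal blastomeres and 446 ± 100.8 TPM in vegetal ones (SD, n = 3), with ratios of 3.46, 2.70 and 3.04. Xetrov90017599m.g was at 1036 ± 79.3 and 536 ± 56.8 TPM (SD, n = 3), with ratios of 2.03, 1.74 and 2.05. In both models the animal and vegetal libraries did not overlap.

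At the edge of the selection the values differed little. The smallest ratio was 1.411 for Xetrov90017220m.g at rank 99 and 1.409 for Xetrov90023958m.g at rank 100. Just outside, it was 1.405 for Xetrov90008994m.g and 1.401 for Xetrov90015499m.g. The edge of the list thus separates no distinct class. In all, 940 of the 6209 eligible models (15.1%) were above 1 in all 3 pairs. How many would be so without any bias was not tested.

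Whole embryos lay between both sets of blastomeres for most members. The whole-embryo mean was between the animal and vegetal means for 95 of 100, against 47.0% of eligible models, which the choice of members favours. Within replicates 1, 2 and 3 it was between them for 90, 89 and 81 members. Summed over the 100 members, TPM was 12906, 15841 and 13383 in animal, 6835, 7662 and 4831 in vegetal and 10441, 11536 and 9222 in whole-embryo replicates 1, 2 and 3. The 3 groups did not overlap in this sum.

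The bias was also read in libraries that had not chosen the models. When 100 models were taken by the same rule from pairs 2 and 3, their median ratio in pair 1 was 1.21, against 0.944 over all eligible models, and 73 of 100 were above 1 against 41.0%. Taken from pairs 1 and 3, their median in pair 2 was 1.78 against 0.991, with 85 above 1 against 48.3%. Taken from pairs 1 and 2, their median in pair 3 was 2.35 against 1.29, with 89 above 1 against 67.4%. The animal direction thus held in each left-out pair, most weakly in pair 1.

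Which models make up the 100 depended on the pairs. The choice without pair 3 shared 78 models with the members and that without pair 2 shared 75. Without pair 1 only 36 were shared, and ranking by the mean of the 3 log2 ratios shared 21.

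The vegetal side of the same libraries was steeper. A mirror list of 100 models was taken from 6261 with a mean of at least 20 TPM in vegetal blastomeres, by the smallest vegetal to animal ratio. Its smallest ratios ran from 1.97 to 100.8 with a median of 3.48. A smallest ratio of 4 was reached by 44 vegetal models and by 0 of the 6209 models ranked for animal bias. These values chose both lists and are a description.

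At stage 10.5, the median member was lower in uninjected caps than in 8-cell animal blastomeres, and single members lay far to either side. The cap and 8-cell tables come from separate experiments, so their levels are set side by side without a test, and stage cannot be told apart from experiment. The 8-cell animal values also chose the members, which favours a lower ratio for them than for eligible models. The members' median log2 ratio of cap to 8-cell animal TPM + 1 was -0.54, against -0.34 over all eligible models. It was -0.30 against -0.22 with cap replicate 1 alone and -0.93 against -0.52 with replicate 2 alone. In caps, 50 members were within 2-fold of the 8-cell animal level, against 55.3% of eligible models. Of the others, 13 were at least 2-fold higher, against 14.4% of eligible models, and 14 were at 1/4 or less, against 11.3%. With cap replicate 2 alone, 25 were at 1/4 or less, against 17.5%.

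**Figure D2:**
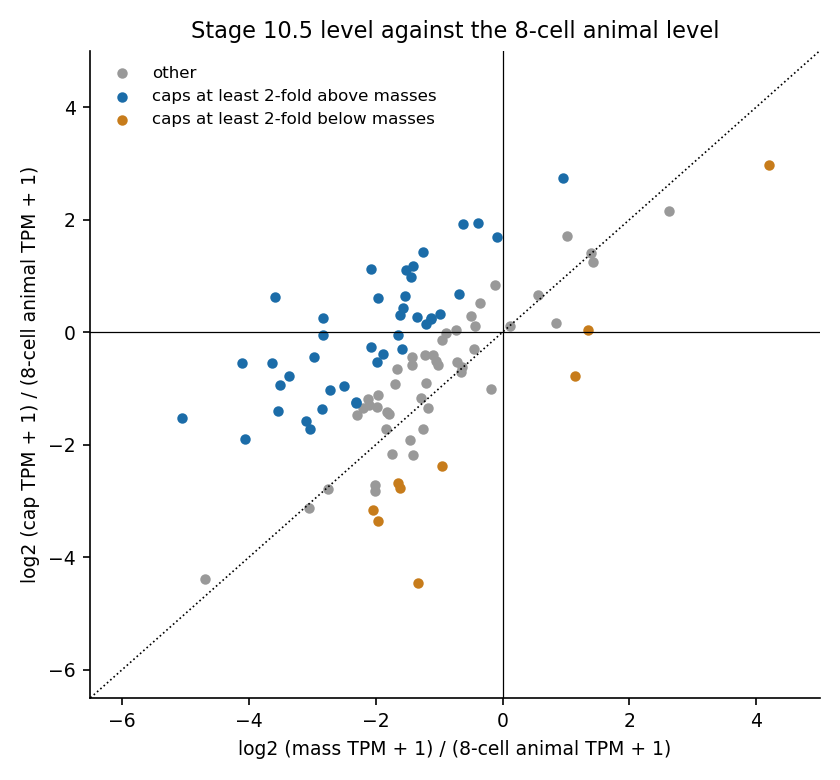
Each point is 1 of the 100 members: log2 ratio of the uninjected mass (x axis) and the uninjected cap (y axis) to the 8-cell animal level, on mean TPM + 1. The 43 blue points are models at least 2-fold higher in caps than in masses and the 9 orange points at least 2-fold lower, both without overlap of replicates. The dotted line marks equal cap and mass levels.

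Xetrov90007725m.g had the greatest ratio of caps to animal blastomeres, 7.88. It was at 18.8, 25.1 and 25.6 TPM in animal blastomeres, at 218 and 161 TPM in uninjected caps and at 416 and 470 TPM in uninjected masses. Every explant was above every animal blastomere library, and both masses were above both caps. An 8-cell animal bias was thus followed at stage 10.5 by a higher level in the vegetal explant.

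Xetrov90020638m.g came next with a ratio of 6.64, from 41.1, 52.6 and 48.0 TPM in animal blastomeres and 255 and 384 TPM in caps. It was at 88.0 and 96.4 TPM in masses, so both caps were above both masses.

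At the other end, Xetrov90027704m.g was at 119, 118 and 100 TPM in animal blastomeres and at 4.88 and 3.37 TPM in uninjected caps. In masses it was at 42.3 and 46.0 TPM, and in vegetal blastomeres at 64.2, 69.4 and 6.55 TPM. Both masses were thus below vegetal replicates 1 and 2 and above replicate 3. It had the lowest ratio of caps to masses among the members, 0.114. All 16 caps, injected ones included, held between 3.37 and 6.61 TPM.

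Xetrov90015537m.g was low in both explants. It was at 210, 328 and 221 TPM in animal blastomeres and at 12.2 and 10.1 TPM in caps and 13.5 and 4.09 TPM in masses. Cap and mass values overlapped.

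The members as a group were higher in uninjected caps than in uninjected masses. These libraries did not enter the choice of members, but they come from separate tables and experiments, so no test was made and explant type cannot be told apart from experiment. The median log2 ratio of caps to masses was 0.86 for the members and -0.06 for all eligible models, and the cap mean was the higher for 76 of 100 against 47.4%. Both caps were above both masses with means at least 2-fold apart for 43 members, against 12.7% of eligible models. The reverse held for 9 members, against 19.2%. In bulk samples, fewer cells with an RNA and less of that RNA per cell cannot be told apart.

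**Figure D3:**
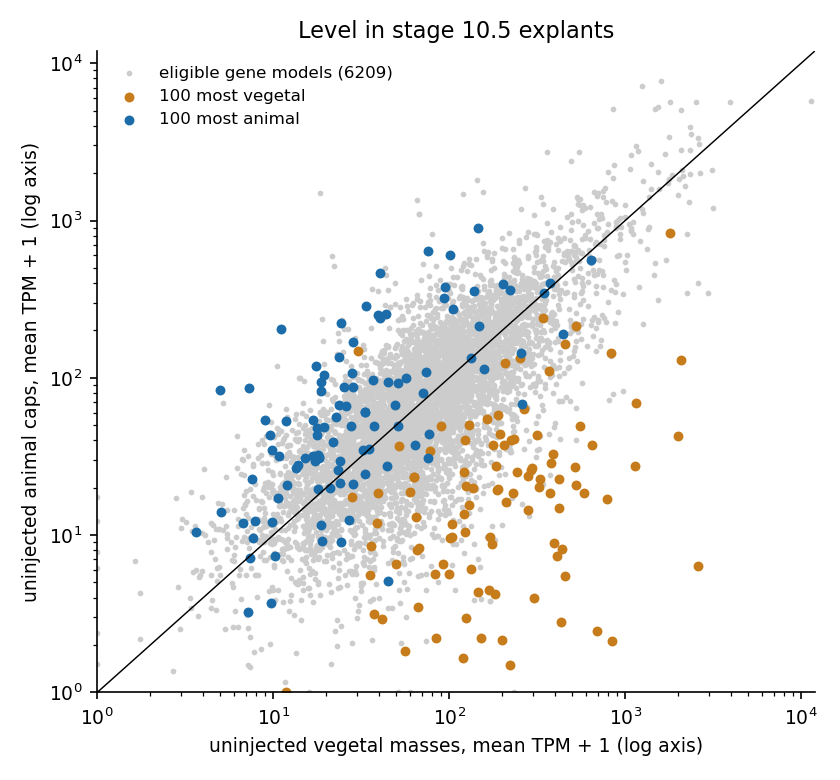
Mean TPM + 1 in uninjected caps against uninjected masses (log axes) for the 6209 eligible models (grey), the 100 members (blue) and the 100 models of the vegetal mirror list (orange). Of the blue points 76 lie above the line of equality, and of the orange points 99 lie below it.

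The count of 43 was above the eligible share with any 1 of the 4 uninjected explants left out. It was 37 without cap replicate 1 and 40 without mass replicate 2, against 10.95% and 11.02% of eligible models. It was 51 without cap replicate 2 and 52 without mass replicate 1, against 17.96% and 20.6%. It was 36, 37 and 35 for members chosen without pair 3, 2 or 1, with 12.8%, 12.9% and 12.6% of the models eligible in each. It was 23 for models chosen by the mean of the 3 log2 ratios, against 12.7%.

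The mirror list served as a check of the explant labels, since markers could not be read by name. Of its 100 vegetal models, 99 were lower in uninjected caps than in masses on average and 87 by at least 2-fold without overlap. Among the 6209 models eligible for the animal rule, 19.2% were lower in caps by at least 2-fold without overlap. That share was not computed over the 6261 models eligible for the mirror list. Its median log2 ratio of caps to masses was -3.52, farther from 0 than the 0.86 of the members.

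The greatest ratio of caps to masses was that of Xetrov90014488m.g, 18.6. It was at 263 and 146 TPM in uninjected caps and at 12.2 and 8.00 TPM in masses. At the 8-cell stage it was at 138, 70.7 and 187 TPM in animal and 69.7, 14.4 and 0 TPM in vegetal blastomeres. Caps and masses were far apart, whereas the ratio at the 8-cell stage varied from 1.96 in pair 1 to 188 in pair 3. Its effective length was 0.0991 of that of the median eligible model, so a given TPM rests on few reads.

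Xetrov90006426m.g followed with a ratio of 16.8. Its levels were 131 and 34.3 TPM in caps and 6.72 and 1.22 TPM in masses, after 559 ± 75.2 TPM in animal blastomeres and 241 ± 69.1 TPM in vegetal ones (SD, n = 3). It was therefore lower in caps than in animal blastomeres, and lower still in masses.

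Xetrov90026807m.g went the opposite way, with 36.4 and 98.3 TPM in caps and 100.2 and 417 TPM in masses. Replicate 2 was the high one in both explants, and caps and masses did not overlap.

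The most biased member, Xetrov90019195m.g, was at 273 and 297 TPM in caps and 25.9 and 39.3 TPM in masses. Across all 16 caps it was at 233 TPM or more and across all 8 masses at 39.3 TPM or less. Xetrov90006851m.g was at 97.0 and 85.9 TPM in caps against 46.0 and 54.0 TPM in masses, less than 2-fold apart.

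The 43 cap-enriched members had a median of 93.0 TPM in caps and 22.6 TPM in masses, after 93.1 TPM in animal blastomeres. The median ratio to the animal blastomere level was 0.961 in caps and 0.254 in masses. The 43 were picked for caps above masses, so that gap follows from the choice. Masses are here set against animal blastomeres, not against the vegetal ones. The 9 mass-enriched members had a median of 8.19 TPM in caps and 26.0 TPM in masses. The other 48 had medians of 32.6 and 29.3 TPM.

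The ratio of caps to masses followed the 8-cell rank beyond the 100 members. Its median on the log2 scale was 0.86 for the members and 0.68, 0.51, 0.42 and 0.18 for the next 4 bins of 100 models by rank. Across the 6209 eligible models, Spearman's rho between the smallest 8-cell ratio and the ratio of caps to masses was 0.30. Within the 100 members it was 0.15, a weak relation. These are descriptions across models that share the same libraries.

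**Figure D4:**
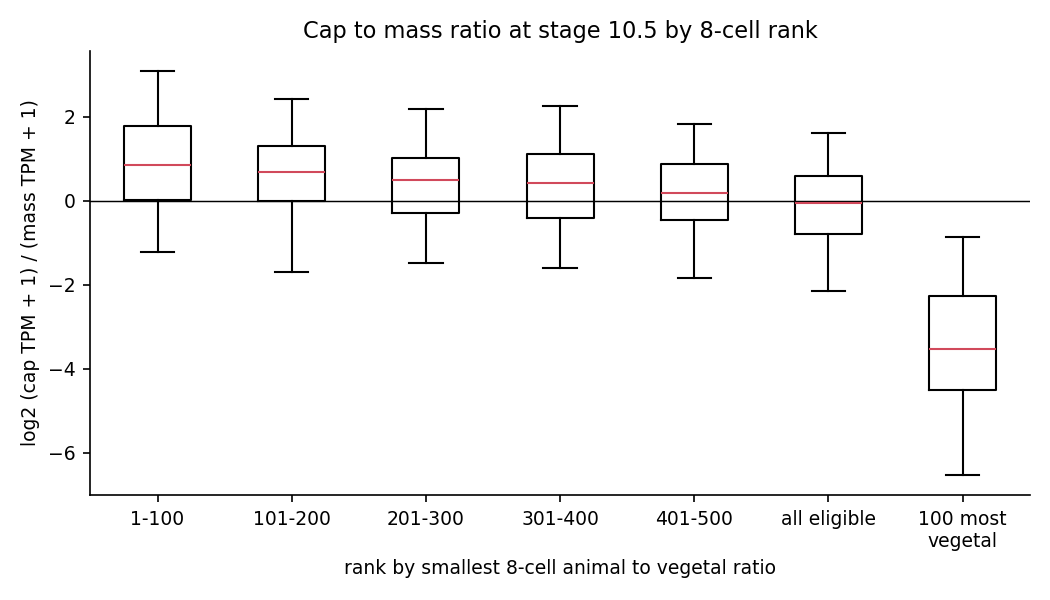
Log2 ratio of uninjected caps to uninjected masses on mean TPM + 1, for bins of 100 models by 8-cell rank, for all eligible models and for the vegetal mirror list. Boxes span the quartiles with the median in red and whiskers reach the 5th and 95th percentiles. The bin medians go down from 0.86 to 0.18, with -0.06 for all eligible models and -3.52 for the mirror list.

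The split between explants was also present in the injected libraries. For 41 members all 16 caps were above all 8 masses, against 16.2% of eligible models, and for 7 all caps were below all masses, against 25.3%. The summed TPM of the members lay between 9559 and 13454 in caps and between 5686 and 6333 in masses, with no overlap in any treatment. It was 13454 and 10048 in uninjected caps and 5779 and 6116 in uninjected masses. All 8 caps with replicate number 1 had a greater sum than the 8 with number 2, so the sum differed more between replicate numbers than between injected amounts. In uninjected caps 76 members were higher in replicate 1, against 66.7% of eligible models.

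**Figure D5:**
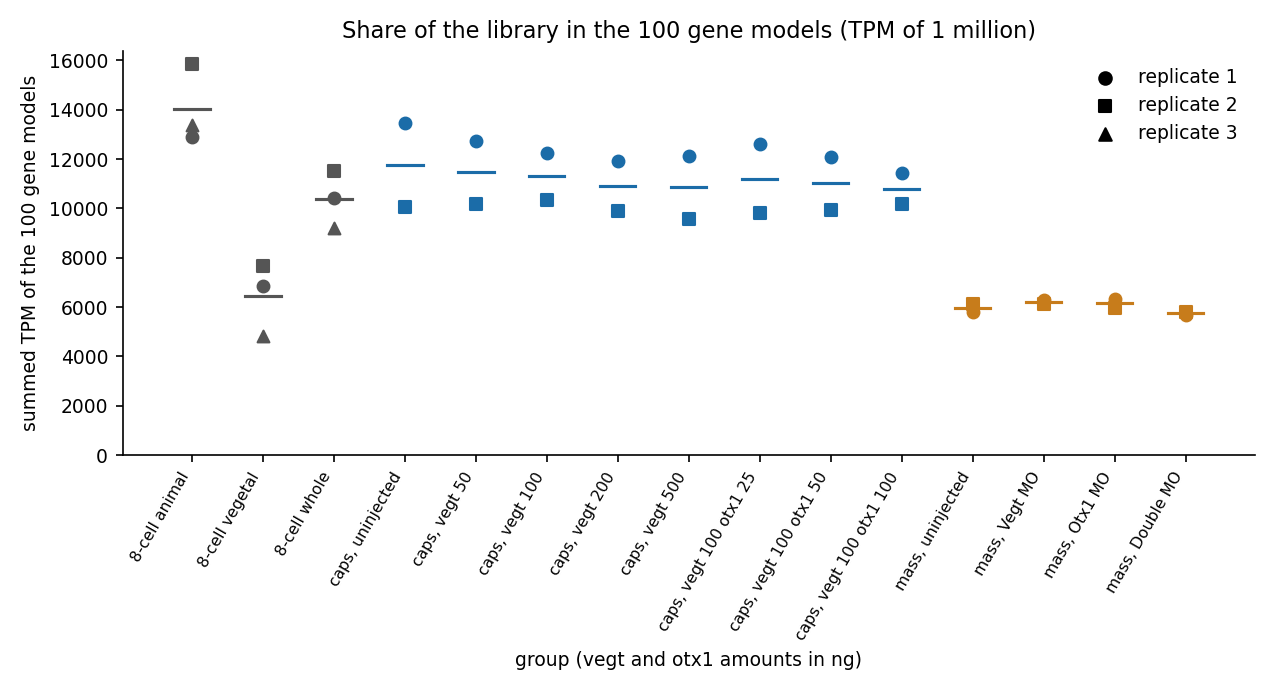
Summed TPM of the 100 members in each of the 33 RNA libraries, by group, with the group mean as a line (n = 3 at the 8-cell stage and 2 in explants). Caps lie between 9559 and 13454, masses between 5686 and 6333.

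The cap injections asked how prospective ectoderm responds to vegt and otx1 RNA. All 100 members passed the filter on low counts in both explant tables. By edgeR's quasi-likelihood test with Benjamini-Hochberg adjustment over all features, 0 members were called (adjusted p under 0.05) in any of the 5 cap comparisons. Over all 16360 features, 0.801% were called at 500 ng of vegt RNA against uninjected caps and 0.153% at 200 ng. In the trend over vegt amounts 1.19% were called. With 100 ng of otx1 RNA added to 100 ng of vegt RNA, and in the trend over otx1 amounts, 0% were called. At an unadjusted p under 0.05 there were 2, 2, 3, 3 and 2 members in these 5 comparisons in that order, against 5.50%, 2.89%, 5.89%, 2.59% and 2.59% of all features. DESeq2 called 0 members in each, and 387, 126, 444, 42 and 48 of the 16360 features.

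On median the members moved little in caps. Their median change on the log2(TPM + 1) scale was -0.11 at 500 ng of vegt RNA, against -0.05 over all eligible models, and 74 of 100 were below 0 against 64.4%. Within replicates 1 and 2 the medians were -0.16 and -0.07, against -0.09 and -0.01. At 200 ng the median was -0.06 for the members and close to 0 for eligible models. With otx1 RNA it was -0.10 against -0.04. Single members ranged from -1.36 to 0.62 at 500 ng. The difference of medians at 500 ng turned to 0.0672 without uninjected cap replicate 1 and to 0.0562 without replicate 2 of the 500 ng caps.

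Fits with the replicate number as a block called a few members. At 500 ng 3 members were lower, against 1.41% of all features and 0.598% of eligible models tested. The same 3 models fell in the vegt trend, against 1.77% of all features and 0.792% of eligible models. At 200 ng, with otx1 RNA added and in the otx1 trend the blocked fit called 0 members, against 1.34%, 0.562% and 0.752% of all features called. At an unadjusted p under 0.05 there were 6, 23 and 20 members, against 8.01%, 9.60% and 9.55% of all features. Of these members 5, 19 and 15 were lower, against 3.30%, 4.70% and 4.58% of features. The other 1, 4 and 5 were higher, against 4.71%, 4.90% and 4.97%. At 500 ng and in the vegt trend there were 11 and 16 members at that threshold, against 12.3% and 13.5% of features.

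Xetrov90007725m.g fell with the amount of vegt RNA in that fit. It was at 218 and 161 TPM in uninjected caps, 150 and 107 TPM at 50 ng, 128 and 80.7 TPM at 100 ng, 97.0 and 79.7 TPM at 200 ng and 108 and 47.9 TPM at 500 ng. Both libraries of every injected amount were below both uninjected caps. The log2 fold change at 500 ng was -1.33 (SE 0.24, edgeR adjusted p = 0.011 with the block and 0.50 without). With otx1 RNA added to 100 ng of vegt RNA it ranged from 58.2 to 137 TPM.

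Xetrov90025432m.g was at 68.6 and 94.4 TPM in uninjected caps and at 53.3 and 46.8 TPM at 500 ng. Both injected libraries were below both controls. Its log2 fold change was -0.64 (SE 0.15, edgeR adjusted p = 0.026 with the block and 0.84 without). The third member was Xetrov90015130m.g, named outside the rule for named models because the count was small, with a log2 fold change of -0.50 (SE 0.13, edgeR adjusted p = 0.047 with the block and 1 without).

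The question behind the MO masses was what changes in prospective endoderm when Vegt, Otx1 or the pair is blocked. Without the block edgeR called 0 members in Vegt MO, Otx1 MO or Double MO masses, against 0.0123%, 0% and 0.0615% of 16269 features. These comparisons had 8, 7 and 10 members at an unadjusted p under 0.05, against 5.38%, 5.08% and 8.82% of features. DESeq2 called 1 member, Xetrov90024479m.g, higher in Vegt MO, against 0.609% of features, and 0 members in Otx1 MO and Double MO, where it called 73 and 305 features. With the block 2 members were higher and 1 lower in Vegt MO, against 1.07% and 1.56% of features. One member (1 of 100) was higher in Otx1 MO, against 0.725%. In Double MO 7 were higher and 2 lower, against 2.93% and 4.06% of features and 4.46% and 3.34% of eligible models. At an unadjusted p under 0.05 the blocked fit had 19, 28 and 22 members higher in Vegt MO, Otx1 MO and Double MO. The shares of all features were 6.24%, 10.9% and 12.1%. Members lower at that threshold numbered 6, 3 and 7, against 8.06%, 8.96% and 12.8% of features. The 3 comparisons use the same 2 uninjected masses.

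The members' medians in the MO masses were small and moved with single libraries. On the log2(TPM + 1) scale Vegt MO, Otx1 MO and Double MO gave medians of 0.12, 0.28 and 0.23, against 0.04, 0.11 and 0.13 over eligible models. The members below 0 numbered 31, 19 and 34, against 41.2%, 35.6% and 34.9% of eligible models, so the Double MO count was at the eligible share. On TMM-scaled counts, where the median of all tested features was -0.02, -0.03 and -0.01, the members' medians were 0.07, 0.18 and 0.11. Within replicates 1 and 2 the Otx1 MO medians were 0.30 and 0.30, against 0.07 and 0.16 over eligible models. For members chosen without pair 3 the median in Otx1 MO stood 0.10 above that of eligible models, in place of 0.16, and in Double MO 0.0195 in place of 0.10. Within replicates 1 and 2 the difference from eligible models was 0.12 and 0.11 in Vegt MO, and 0.15 and 0.0631 in Double MO. The Double MO difference was -0.0890 without replicate 1 of the Double MO masses and -0.0095 without replicate 2 of the uninjected masses. Its sign thus changed with single libraries left out, which also unpairs the replicate numbers. In Vegt MO the members' own median was -0.02 without replicate 2 of the uninjected masses and 0.03 without replicate 1 of the Vegt MO masses. The Otx1 MO difference was 0.0270 without replicate 1 of the Otx1 MO masses and 0.0848 without replicate 2 of the uninjected masses.

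Xetrov90024479m.g was at 9.50 and 7.63 TPM in uninjected masses and at 21.8 and 20.8 TPM in Vegt MO. In Otx1 MO it was at 12.02 and 9.18 TPM and in Double MO at 15.99 and 16.93 TPM. Vegt MO and Double MO did not overlap with the uninjected masses. The log2 fold change in Vegt MO was 1.28 (SE 0.19, edgeR adjusted p = 0.0080 with the block and 0.23 without, DESeq2 adjusted p = 0.00027). In uninjected caps it was at 49.4 and 35.3 TPM, above all masses.

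Xetrov90006254m.g was at 84.7 and 48.2 TPM in Vegt MO and 44.3 and 28.1 TPM in uninjected masses. Replicate 1 was the high one in both groups. Its log2 fold change was 0.82 (SE 0.14, edgeR adjusted p = 0.017 with the block and 0.85 without).

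Xetrov90030711m.g was the member called lower in Vegt MO with the block. It was at 6.64 and 5.03 TPM there, against 10.4 and 7.96 TPM in uninjected masses. In Double MO it was at 7.35 and 5.44 TPM, also below both controls. Its log2 fold change was -0.69 in Vegt MO (SE 0.15, edgeR adjusted p = 0.045 blocked, 0.63 unblocked). In Double MO it was -0.64 (SE 0.15, edgeR adjusted p = 0.037 blocked, 0.46 unblocked).

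Xetrov90019102m.g rose in Otx1 MO. It was at 23.9 and 14.3 TPM there and at 13.4 and 4.38 TPM in uninjected masses, without overlap. Its log2 fold change was 1.11 (SE 0.20, edgeR adjusted p = 0.037 with the block and 0.94 without).

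Xetrov90000888m.g had the greatest change in Double MO. It was at 49.5 and 31.1 TPM there, at 42.2 and 29.9 TPM in Otx1 MO, at 16.96 and 6.76 TPM in Vegt MO and at 17.7 and 4.00 TPM in uninjected masses. Double MO and Otx1 MO were above the controls, and Vegt MO overlapped with them. The log2 fold change in Double MO was 2.00 (SE 0.36, edgeR adjusted p = 0.034 with the block and 0.51 without). In uninjected caps it was at 82.0 and 22.0 TPM.

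Xetrov90025432m.g, lower in caps with vegt RNA, was higher in Double MO masses. It was at 38.3 and 32.6 TPM there, against 23.8 and 11.7 TPM in uninjected masses. Its log2 fold change was 0.94 (SE 0.20, edgeR adjusted p = 0.030 with the block and 0.46 without). The model was not called in Vegt MO or Otx1 MO, with or without the block. Whether the responses of caps and masses differ was not tested.

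Among the members called lower in Double MO with the block, Xetrov90025385m.g had the greatest decrease. It was at 138 and 243 TPM there, against 236 and 450 TPM in uninjected masses. Replicate 2 was the high one in both groups, and the groups overlapped when replicates were not paired. The log2 fold change was -0.96 (SE 0.19, edgeR adjusted p = 0.025 with the block and 0.61 without).

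Xetrov90007725m.g, the member with the greatest ratio of caps to animal blastomeres, was at 416 and 470 TPM in uninjected masses. The Otx1 MO masses held 310 and 391 TPM, the Vegt MO masses 200 and 310 TPM and the Double MO masses 123 and 338 TPM. All 6 MO masses were below both uninjected ones. This model was not called in any of the 3 comparisons, with or without the block.

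One property of the members outside the rule was transcript length. The effective length implied by count and TPM in whole embryos, relative to the median eligible model, had a median of 1.34 for the members and quartiles of 0.722 and 1.96. Over all eligible models these quartiles were 0.605 and 1.54, so the members were longer on median but their ranges overlapped widely. The median was 1.45 among the 43 cap-enriched members, 1.58 among the 9 mass-enriched ones and 1.03 among the other 48.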

How the data were processed

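The authors deposited, for each of 3 RNA experiments, a table of expected counts (estimated read counts per feature, not whole) and a table of TPM per library. Smart-seq2 cDNA from polyA RNA was tagmented, per the labels' protocols. RSEM 1.2.12 and Bowtie2 2.2.7 are named in the submitters' processing notes; the sources used here give no genome build. No use was made of the 4 peak lists, because the gene models have no coordinates in the files.

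Members and lists were chosen with earlier results of these data known. Levels and ratios use TPM with a pseudocount of 1, in Python 3.11.15. Expected counts were rounded and tested with edgeR 4.0.16 in R 4.3.3 (TMM, filterByExpr, robust quasi-likelihood, 1 group-means model per table, all features). A call is a Benjamini-Hochberg adjusted p under 0.05, two-sided. Each trend was fitted on a log2 score of the amount plus the lowest injected amount (vegt 50, otx1 25). SEs are the log2 fold change divided by the root of F. The tables were normalized and tested separately, and each rests on its own library sizes. DESeq2 1.42.0 was an alternative.

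Same-numbered libraries deviated together from their group means, across features. The r was between 0.43 and 0.68 at the 8-cell stage, 0.67 and 0.89 in caps and 0.71 and 0.82 in masses. Replicate number paired the libraries in the 8-cell ratios, in values within replicates and in the blocked fit. The edgeR fit without the block and DESeq2 had no term for it, so their counts of calls ignore this pairing. With n = 2 per group, the spread of each feature was estimated over all groups of a table and drawn toward that of other features. The p-values set a change against this shared spread between libraries. The edgeR test without the block was first tried on simulated counts, drawn independently with no effect of replicate number. The blocked fit and DESeq2 were not tried in this way.

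Models were named by rule, at most 2 per pattern and direction: the greatest 8-cell ratio and TPM, the edge of the list, the extremes of caps to 8-cell animal blastomeres and of caps to masses, and the greatest called changes in each comparison (blocked fit where the other called 0).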

Additional observations from a re-analysis of the deposited data

How the results depend on the processing

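Of the 100 members, 21 were chosen again when ranked by the mean of the 3 log2 ratios and between 36 and 78 when 1 replicate pair was left out. The direction of the ratio of caps to masses was kept under all alternatives run: the median was between 0.67 and 1.18 with 1 library left out, and 0.51 for models chosen by the mean ratio, where 23 models were at least 2-fold higher in caps. The members at least 2-fold lower in caps than in masses numbered 5 with a pseudocount of 5 (16.9% of eligible models) and 5 for members chosen without pair 1 (19.2%), and 7 to 13 with 1 library left out (18.3% to 26.6%); those at least 2-fold higher numbered 37 to 52 (10.95% to 20.6%). Against 8-cell animal blastomeres, leaving out a cap gave medians of -0.93 to -0.30, 10 to 15 members at least 2-fold higher (13.4% to 15.8% of eligible models) and 12 to 25 at 1/4 or less (9.55% to 17.5%). Without the block edgeR called 0 members in all 8 comparisons, also under RLE scaling and without the count filter. With TMM and the filter, that fit called 0% to 1.19% of all features per comparison. A count of 0 among 100 members is near those shares. The replicate block gave 3 members at 500 ng, 3 in the vegt trend, 9 in Double MO, 1 in Otx1 MO and 3 in Vegt MO, and changed no other count; DESeq2 gave 1 in Vegt MO. The members' median change minus that of eligible models was -0.06 at 500 ng (-0.0509 with a pseudocount of 5) and ranged from -0.21 to 0.0672 with 1 library left out. These ranges were -0.16 to 0.0916 at 200 ng, -0.0513 to 0.0156 in the vegt trend, -0.20 to -0.0578 with otx1 RNA, -0.0829 to -0.0139 in the otx1 trend, -0.0890 to 0.29 in Double MO, 0.0110 to 0.21 for Vegt MO and 0.0270 to 0.27 for Otx1 MO. This difference was above 0 at 500 ng, at 200 ng and in the vegt trend without uninjected cap 1 or without replicate 2 of the 500 ng caps (500 ng and trend) or 200 ng caps (200 ng). The difference, not the members' own median, was below 0 in Double MO without replicate 1 of the Double MO masses or replicate 2 of the uninjected ones. Leaving out 1 library also unpairs the replicate numbers. In Vegt MO the difference was 0.0624 with a pseudocount of 5 and 0.0948 for members chosen without pair 3, and in Double MO 0.0195 for those. The cause was not tested. The alternative choices of members applied to the explants were added after seeing the data.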

Other observations

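The rule was applied to gene models only. Of the 5684 long non-coding RNA (lncRNA) models in the same table, 95 had a mean of at least 20 TPM in animal blastomeres. Of these 95, 4 had a smallest animal to vegetal ratio at or above that of the 100th member, and the highest was 3.37.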
